A study of Homo sapiens with 9 samples.

Results

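The libraries labelled as TRAP-1 knockdown were compared with those of the parental cells over the whole transcriptome, and the changes are described by gene family outside the energy pathways. The libraries were chosen by their sample labels and make up 6 of the 9 in the series. The study set out to learn how TRAP-1, a mitochondrial relative of the chaperone Hsp90, alters a neuroblastoma cell. The material was total RNA of cultured cells labelled IMR-32, an established human line that the labels give as neuroblastoma from brain, prepared with the TruSeq RNA kit v2. The parental group (PAR) carries the genotype WT, the knockdown group (KD) and the overexpression group (OE) carry their TRAP-1 manipulation as the genotype, and each group has 3 libraries. How the engineered cells were derived, and whether each is a clone, is not given in the sources used here.

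Values are regularized logarithms (rlog, log2 scale) made by the authors from read counts. Such values are drawn toward the mean of each gene, more so at low levels, so the differences given here are shrunken. They do not show how deeply a library was sequenced. Differences between group means were tested with limma over 22290 genes and called at an adjusted p under 0.05. No label says that replicates came from separate cultures, so p-values measure only the spread between these samples, which may be technical. In bulk samples, fewer cells of a type and less RNA per cell cannot be told apart.

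TRAP1 (ENSG00000126602, chr16:3651639-3717553, minus strand) read 10.67, 10.66 and 10.65 in the parental libraries, 10.79, 10.79 and 10.83 in the libraries labelled KD and 10.67, 10.63 and 10.74 in those labelled OE. The values labelled KD were the higher ones and did not overlap with parental. TRAP1 rose by 0.14 (standard error 0.0252, adjusted p = 1.8e-05, limma), which goes against the label of a knockdown. The groups are therefore called libraries labelled KD and labelled OE, and each direction below is that of the labelled libraries. Coordinates here and below are of GRCh38, and other annotated genes overlap 28.5% of the exon bases of TRAP1.

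Neuroblastoma cells are described in an adrenergic state, held by sympathetic lineage factors such as HAND2 and ISL1, and in a mesenchymal state marked by PRRX1, VIM and FN1. The adhesion molecules, guidance cues and synaptic proteins of the neural lineage are part of how such cells contact neighbours and matrix, and the WNT, Notch, Hedgehog and Hippo pathways relay such contacts to transcription factors. Levels were therefore first set against marker genes, as a percentile of level per kb of exon among protein-coding genes in the parental libraries. MYCN, which codes for the MYC relative amplified in many neuroblastomas, read 2.54, 2.46 and 2.54 and stood at percentile 11.5. CHGA, a granule protein of chromaffin cells, stood at percentile 18.6 and PHOX2A at 9.13. IMR-32 is known as a line with amplified MYCN, so this level goes against the labelled cell line, although the study's methods state that the line had been authenticated. Genes that cells in general need can also read low here, such as TIMM9 of mitochondrial import (parental mean 0.76) and NOL12 (0.63). A low value therefore need not show low expression, and how reads of MYCN were counted was not tested. Higher in this list were ISL1 (62.5), NEFL (51.8), GATA2 (49.9), ALK (37.7) and GATA3 (36.1). INSM1, TBX2, DBH, DDC, SLC6A2, STMN2, ELAVL4 and RET were among the listed genes not analysed here.

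**Figure D1:**
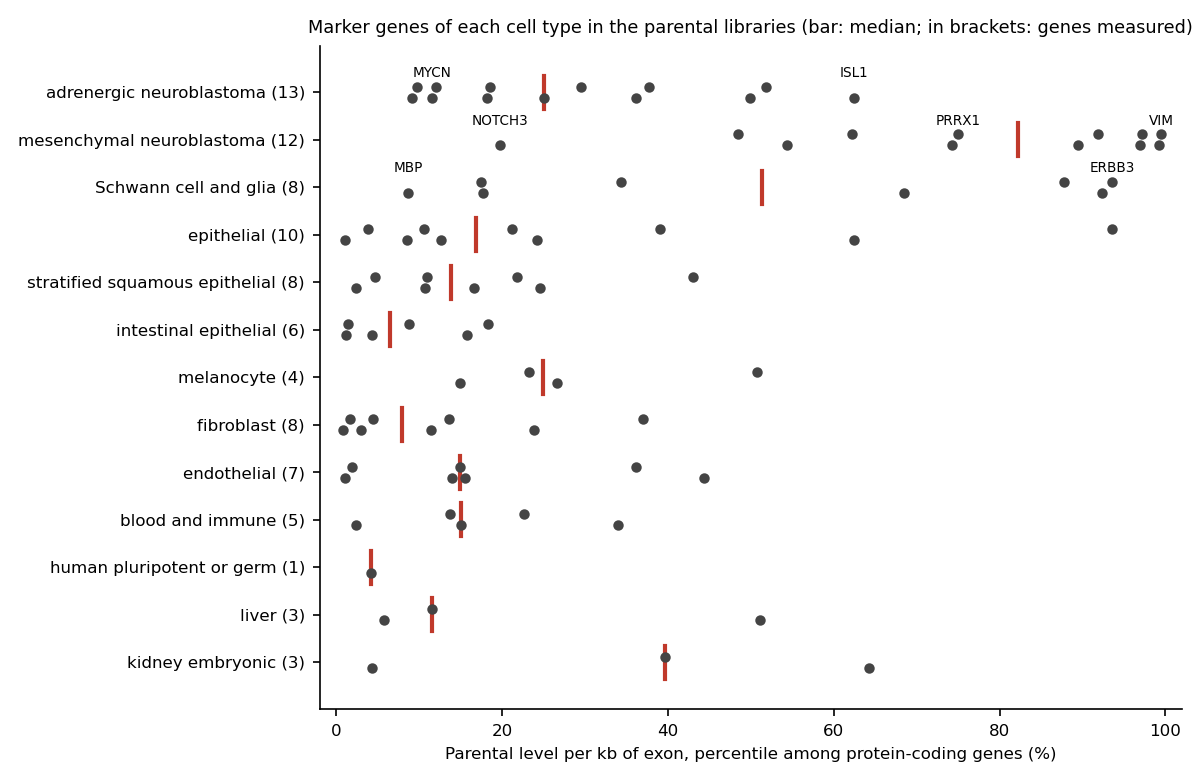
Percentile of level per kb of exon among protein-coding genes (horizontal axis, %, mean of 3 parental libraries) for marker genes of 13 cell types (rows). Points are genes and bars are medians, which lie at 25.1 for adrenergic and 82.2 for mesenchymal neuroblastoma genes.

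Among the 13 measured of 22 listed adrenergic genes the median percentile was 25.1, and among the 12 mesenchymal genes it was 82.2. The plot of marker percentiles shows this gap. Glial genes, with a median of 51.4, ran from MBP (8.65) to ERBB3 (93.6), and epithelial genes, with a median of 16.9, from ELF3 (1.08) to KRT18 (93.6). In the libraries labelled KD, 3 adrenergic genes were called higher and 7 lower, against 7 higher and 4 lower of the mesenchymal genes. PRRX1, a mesenchymal homeobox factor, read 11.64, 11.74 and 11.72 in the parental libraries and 13.00, 12.99 and 12.98 in those labelled KD. The groups did not overlap, and the rise was 1.29 (standard error 0.0197, adjusted p = 3.1e-31, limma). VIM, the intermediate filament of mesenchymal cells, rose by 0.36, MEOX2 by 0.53 and TWIST1 by 0.43, while FN1 fell by 0.96, FOSL1 by 0.72, NOTCH3 by 0.48 and CD44 by 0.16. In the libraries labelled OE, PRRX1, VIM, MEOX2 and TWIST1 differed from parental by 0.69, 0.15, 0.44 and 0.28. FN1, FOSL1, NOTCH3 and CD44 differed there by 0.55, -0.52, -0.12 and -0.03. The summed level per kb of the adrenergic genes, of which ISL1 was the most abundant, was 653.9, 652.0 and 648.5 in the parental libraries and 609.3, 606.7 and 617.0 in those labelled KD. The sum of the mesenchymal genes, led by VIM, was 26220, 26260 and 26370 in the parental libraries and 27490, 27610 and 27420 in those labelled KD. Without VIM, the sum of the other 11 mesenchymal genes was 15740, 15830 and 15970 in the parental libraries and 14100, 14090 and 14030 in those labelled KD. The mesenchymal sums were thus higher with VIM and lower without it in the libraries labelled KD, each without overlap. With ISL1 the adrenergic sums of the groups did not overlap, and without it they did, at 419.2, 419.0 and 412.2 in the parental libraries and 392.3, 398.5 and 413.9 in those labelled KD. Markers of squamous epithelium, led by KRT14, summed to 110.5, 116.8 and 111.5 in the parental libraries and to 79.63, 76.22 and 74.88 in those labelled KD. In those labelled OE the sums were 83.74, 85.97 and 88.24. In the libraries labelled KD 6 of the 8 squamous markers were lower and none higher, but 7 of the 8 had a mean rlog under 5. KRT5 and TP63 stood at percentiles 4.70 and 2.37. Median percentiles were 7.90 for fibroblast and 14.9 for endothelial markers. Embryonic kidney markers, led by LHX1, summed to 318.8, 317.0 and 314.6 in the parental libraries and 399.3, 403.5 and 395.9 in those labelled KD. Without LHX1 the direction turned, at 65.89, 65.48 and 63.84 in the parental libraries and 59.78, 62.75 and 59.91 in those labelled KD. Liver, melanocyte and blood sums were lower without overlap, while epithelial, intestinal and fibroblast sums overlapped. Without their most abundant genes (SERPINA1, MITF and LYZ) the liver sums overlapped, the melanocyte sums were higher and the blood sums stayed lower. Glial and endothelial sums were higher with their most abundant gene (ERBB3 and PECAM1) and lower without it. Whether a shift between cell types has a part in the changes below was not tested.

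Of 22290 genes, 11980 (53.7%) were called between the libraries labelled KD and parental, 5985 (26.9%) higher and 5995 (26.9%) lower. In 13185 genes (59.2%) the 3 libraries labelled KD lay beyond the 3 parental libraries on the same side. Genes named for the largest changes were chosen among these, so their lack of overlap follows from the choice. A difference over 0.5 as well was found for 604 genes (2.71%) that rose and 506 genes (2.27%) that fell. The calls fell more often on well-expressed genes, with 23.4% of 8290 genes called at a mean rlog under 5 and 74.4% of 7997 genes at 8 to 12. Protein-coding genes were called higher in 29.8% and lower in 34.2% of 14697 cases, and long noncoding RNAs in 24.1% and 13.5% of 5214. A list of protein-coding genes is therefore read against both backgrounds. Members given as examples of list subgroups and symbol families, beyond the largest changes of each list, were chosen after their values were seen. The median difference over all genes was -0.001.

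**Figure D2:**
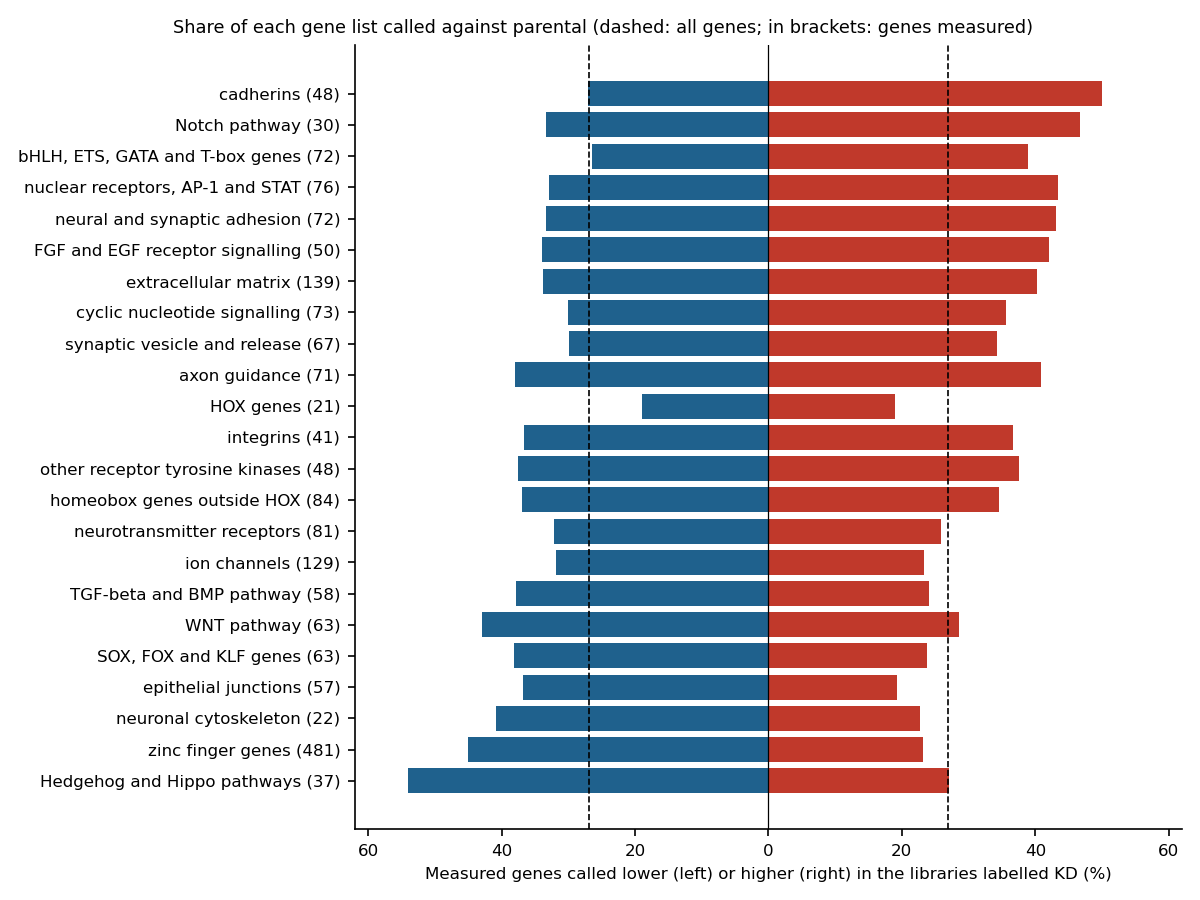
Share of the measured members of 23 gene lists that were called lower (left, blue) or higher (right, red) in the 3 libraries labelled KD against 3 parental libraries (%, limma, adjusted p under 0.05). Dashed lines mark the 26.9% of all genes called in each direction, and cadherins stand at 24 of 48 higher and the Hedgehog and Hippo list at 54.1% lower.

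Of the 23 lists in the bars of called shares, rises exceeded falls by the widest margin for cadherins, and falls exceeded rises by the widest for the Hedgehog and Hippo pathways (54.1% lower and 27.0% higher). Cadherins hold cells together through calcium-dependent contacts of like molecules. Of 48 measured members, 24 rose and 13 fell, with a median difference of 0.068 against -0.001 for all genes. CDH10, a type II cadherin of the brain (ENSG00000040731, chr5:24487100-24644978, minus strand), read 6.19, 6.32 and 6.31 in the parental libraries and 9.22, 9.20 and 9.22 in the libraries labelled KD. The latter were far above parental with no overlap, by 2.94, and in the libraries labelled OE the difference from parental was 0.19. CDH18, its relative on the same chromosome (ENSG00000145526, chr5:19471296-20575873, minus strand), read 5.79, 5.99 and 5.92 in the parental libraries and 7.60, 7.63 and 7.58 in those labelled KD. Again the groups stood apart, with a rise of 1.71 (standard error 0.0483, adjusted p = 3.8e-24, limma). The non-clustered protocadherins had 7 rises and 1 fall among 11 members and a median of 0.225, or 0.112 with window medians removed. PCDH17 rose by 1.27, PCDH7 by 0.62 and PCDH11X by 0.59, examples chosen after their values were seen. In the libraries labelled OE these 3 genes differed from parental by -0.38, 0.34 and 0.03. The falls among cadherins were smaller and led by CDHR3 (-0.41) and FAT1 (-0.35), a giant cadherin read at 14.15, 14.14 and 14.16 in the parental libraries. For the 34 classical and atypical cadherins alone, the median was 0.006 and turned to -0.006 when libraries were shifted to the same median.

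Neural and synaptic adhesion molecules moved in both directions, with 31 of 72 measured genes higher and 24 lower. A difference over 0.5 was reached by 15 of the rises and 10 of the falls. NCAM1, the neural cell adhesion molecule (ENSG00000149294, chr11:112961275-113278436, plus strand), read 6.35, 6.38 and 6.39 in the parental libraries, 7.77, 7.71 and 7.82 in those labelled KD and 5.98, 5.89 and 5.89 in those labelled OE. It was high in the libraries labelled KD and lowest in those labelled OE, with no overlap among the groups. The rise against parental was 1.39 (standard error 0.0452, adjusted p = 1.4e-22, limma). LRRTM4, a postsynaptic leucine-rich repeat protein (ENSG00000176204, chr2:76747685-77593319, minus strand), rose by 1.52 from 6.32, 6.17 and 6.28 to 7.80, 7.79 and 7.74. With it, neurexins, neuroligins and their partners counted 11 rises and 4 falls among 20 genes, at a median of 0.144. Of these, NLGN1 rose by 0.65, NLGN2 by 0.59, SLITRK2 by 0.82 and SLITRK5 by 0.63, while LRRC4B (-1.09) and NRXN3 (-0.57) fell, all chosen after their values were seen.

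The largest fall of this list by rlog difference was that of the latrophilin ADGRL2, an adhesion receptor that binds teneurins and FLRT proteins (ENSG00000117114, chr1:81306147-81993932, plus strand). It read 9.33, 9.41 and 9.32 in the parental libraries, 7.10, 7.09 and 7.05 in those labelled KD and 9.05, 9.05 and 9.06 in those labelled OE. The libraries labelled KD were the low ones and overlapped with neither other group. The difference from parental was -2.27 (standard error 0.035, adjusted p = 3.6e-31, limma). Its paralog ADGRL3 went the other way with a rise of 1.12, and lies in a stretch of chromosome 4 described below where most well-expressed genes rose (0.70 with its window median removed). SLITRK6, a synapse-inducing protein of sensory neurons (ENSG00000184564, chr13:85792790-85806683, minus strand), fell from 12.27, 12.33 and 12.34 to 11.17, 11.16 and 11.16, a difference of -1.15. FLRT2 rose by 0.58 and TENM1 and TENM4 fell (differences -0.58 and -0.62), so ligands and receptors of this adhesion system were found on both sides.

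**Figure D3:**
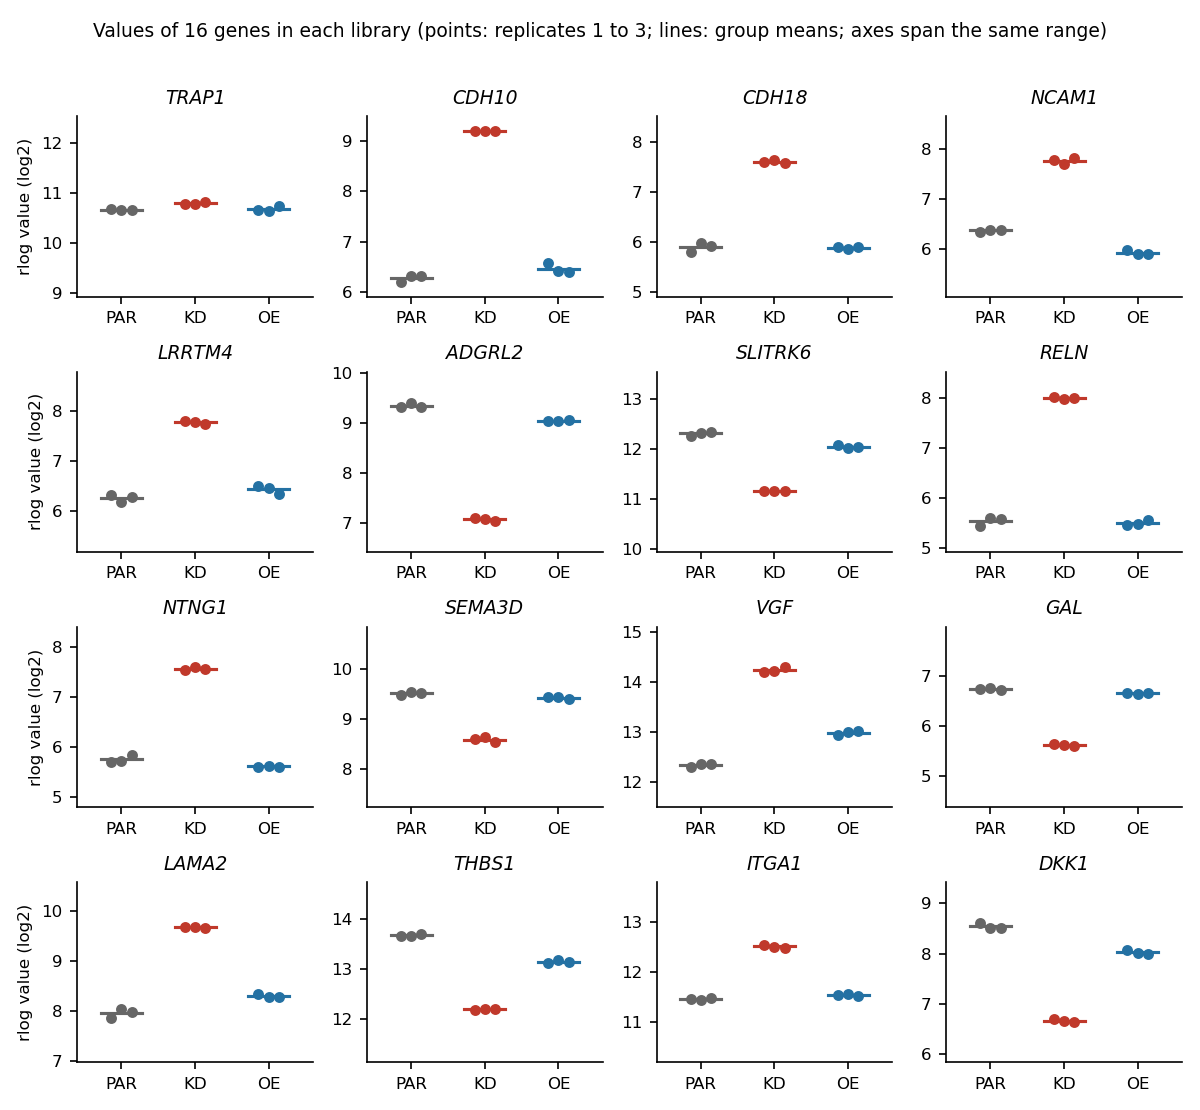
Rlog values (vertical axis, log2) of 16 genes in 3 parental libraries (PAR, grey), 3 labelled KD (red) and 3 labelled OE (blue). Points are libraries, lines are group means and panels span the same range, with CDH10 rising from a mean of 6.27 to 9.21 and ADGRL2 falling from 9.35 to 7.08 in the libraries labelled KD, while TRAP1 differs by 0.14.

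Matrix genes were called in both directions at similar rates, 56 of 139 higher and 47 lower, and the list median of 0.007 turned to -0.004 when libraries were shifted to the same median. Subgroups differed more. Laminins and nidogens, which build the basement membrane, had 8 rises and 4 falls among 14 genes, with a median of 0.175. LAMA2, the alpha chain of the laminin of muscle and nerve (ENSG00000196569, chr6:128883138-129516566, plus strand), read 7.86, 8.04 and 7.98 in the parental libraries and 9.66, 9.68 and 9.66 in those labelled KD. It rose by 1.71 with no overlap (standard error 0.038, adjusted p = 5.9e-27, limma), and LAMA3, LAMA5 and NID1 rose by 0.73, 0.55 and 0.59. Matrix glycoproteins had 16 rises and 5 falls among 26 genes with a median of 0.155, and proteoglycans 7 rises and 11 falls among 21 with a median of -0.115, or -0.036 with window medians removed. EMILIN1, an elastic fibre glycoprotein, rose by 1.58, whereas FN1, the fibronectin that integrins bind, fell by 0.96. In the libraries labelled OE, FN1 differed from parental by 0.55.

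The matrix glycoprotein THBS1, thrombospondin 1 (ENSG00000137801, chr15:39581079-39599466, plus strand), read 13.65, 13.66 and 13.69 in the parental libraries and 12.17, 12.19 and 12.19 in those labelled KD. All 3 libraries labelled KD were below all 3 parental libraries. The difference was -1.48 (standard error 0.0157, adjusted p = 2.2e-35, limma). COL6A3, a chain of collagen VI, fell by 1.24 in a group of 41 collagens with 12 rises and 13 falls. ADAMTS4, a protease that cuts aggrecan, rose by 1.59 in the libraries labelled KD and by 1.09 in those labelled OE. Of 41 integrin genes and adaptors, 15 rose and 15 fell. The collagen-binding alpha chains ITGA1 (ENSG00000213949, chr5:52787916-52959209, plus strand) and ITGA10 rose by 1.05 and 1.02. The kindlins FERMT1 and FERMT3, which activate integrins, fell (differences -0.87 and -1.12), and their differences in the libraries labelled OE were -1.02 and -1.02. Beta chains had 1 rise and 4 falls among 8.

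Epithelial junction genes had 11 rises and 21 falls among 57 measured members, with a median of -0.036, or -0.057 with window medians removed. The falls were mostly keratins, of which 12 of 21 fell and 1 rose. KRT14 of basal squamous cells read 7.51, 7.60 and 7.52 in the parental libraries and 6.91, 6.84 and 6.79 in those labelled KD, and KRT6B read 7.89, 7.85 and 8.04 and 7.08, 7.18 and 7.20. Neither gene overlapped between groups, and the differences were -0.70 and -0.78. KRT8 was the keratin that rose, by 0.39. In the libraries labelled OE, KRT14, KRT6B and KRT8 differed from parental by -0.49, -0.75 and 0.40. KRT6B and KRT8 were not called between the libraries labelled KD and OE. The desmosomal cadherin DSC3 rose by 1.15 from 5.06, 5.08 and 5.14. Of the 8 squamous markers summed above 5 are keratins, so these falls and that sum overlap.

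Axon guidance genes steer growing neurites by attraction and repulsion. Of 71 measured members 29 rose and 27 fell, and the median of -0.007 turned to 0.018 once the medians of chromosome windows were removed. RELN, the secreted glycoprotein that positions migrating neurons (ENSG00000189056, chr7:103471381-103989658, minus strand), read 5.45, 5.60 and 5.59 in the parental libraries, 8.01, 7.98 and 8.01 in those labelled KD and 5.47, 5.48 and 5.57 in those labelled OE. It was high in the libraries labelled KD alone, while the other groups overlapped. The rise was 2.45 (standard error 0.0486, adjusted p = 2.7e-28, limma). Its receptor VLDLR rose by 0.23 (0.07 with its window median removed), while the adaptor DAB1, with a difference of -0.06, was not called. NTNG1, a membrane-anchored netrin of axons (ENSG00000162631, chr1:107140007-107484923, plus strand), read 5.71, 5.73 and 5.85 in the parental libraries and 7.53, 7.59 and 7.56 in those labelled KD. This was a rise of 1.80 with no overlap (standard error 0.0466, adjusted p = 3.4e-25, limma). Of the 12 netrins and receptors, 4 rose and 7 fell, among them the secreted NTN1 with -0.63 and the receptor UNC5B with -0.57. The repulsive semaphorin SEMA3D (ENSG00000153993, chr7:84995553-85187056, minus strand) fell from 9.49, 9.55 and 9.53 to 8.60, 8.64 and 8.54, a difference of -0.93. The Eph receptor EPHA3 rose by 1.67, an example chosen after its value was seen.

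Genes of neurotransmission were called at rates near those of all genes. Ion channels had 30 rises and 41 falls among 129 genes, and 61 of these had a mean rlog under 5. The inward rectifier KCNJ10 (ENSG00000177807, chr1:159998651-160070160, minus strand) rose by 1.72, from 6.77, 6.77 and 6.81 in the parental libraries to between 8.48 and 8.54 in those labelled KD, and the sodium-activated channel gene KCNT2 rose by 1.44. KCNN3 of the calcium-activated family fell by 0.77. Neurotransmitter receptors had 21 rises and 26 falls among 81 genes. GRIA2, a subunit of AMPA-type glutamate receptors, rose by 0.66, the metabotropic glutamate receptor gene GRM8 fell by 1.23 and the glycine receptor gene GLRA1 fell by 0.79. Of 22 genes of the neuronal cytoskeleton 5 rose and 9 fell, with MAP1A at 0.51, MAP1B at 0.25, DPYSL5 at -0.76 and the tubulin TUBB2B at -0.51.

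Secreted neuropeptide genes split within a small group, 4 higher and 6 lower of 12 granins and neuropeptides. VGF, a nerve growth factor-induced peptide precursor (ENSG00000128564, chr7:101162509-101165569, minus strand), read 12.32, 12.38 and 12.36 in the parental libraries and 14.22, 14.23 and 14.30 in those labelled KD. The groups stood apart by 1.90 (standard error 0.0205, adjusted p = 2.6e-35, limma), and the libraries labelled OE, at 12.94, 13.01 and 13.04, lay between them. TAC1, the precursor of substance P, rose by 1.23, SCG2 by 0.57 and CPE, the carboxypeptidase that trims such peptides, by 0.60. GAL, the galanin precursor (ENSG00000069482, chr11:68683779-68691175, plus strand), read 6.73, 6.75 and 6.72 in the parental libraries and 5.64, 5.62 and 5.59 in those labelled KD. It fell by 1.12 without overlap, as PCSK1N, an inhibitor of prohormone cleavage, fell by 1.09. In the whole list of synaptic vesicle and release genes, 23 of 67 rose and 20 fell, and the median of -0.003 turned to 0.035 with window medians removed.

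The WNT pathway, in which secreted WNT proteins act through Frizzled receptors on beta-catenin, had 18 rises and 27 falls among 63 genes. Its median of -0.033 turned to 0.002 with window medians removed. DKK1, a secreted antagonist (ENSG00000107984, chr10:52314281-52318042, plus strand), read 8.62, 8.51 and 8.51 in the parental libraries and 6.69, 6.66 and 6.63 in those labelled KD. The libraries labelled KD were low with no overlap, a difference of -1.89 (standard error 0.0412, adjusted p = 4.0e-27, limma). The ligand WNT9A fell from 7.95, 7.92 and 7.97 to 6.47, 6.48 and 6.40 and differed from parental by -1.06 in the libraries labelled OE, while the nuclear effector LEF1 rose by 0.62 and the DKK relative DKK3 by 0.60. Of the exon bases of DKK3, 47.5% overlap other annotated genes.

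Notch pathway genes are given by role. Of 12 ligands and receptors 2 rose and 6 fell, with a median of -0.087, and of 18 modifiers and targets 12 rose and 4 fell, with a median of 0.161. NOTCH1 (ENSG00000148400, chr9:136494433-136546048, minus strand) read 11.62, 11.60 and 11.65 in the parental libraries and 11.01, 11.01 and 11.06 in those labelled KD. The difference was -0.60, and NOTCH1 lies on chromosome 9 where neighbouring genes fell as well, leaving -0.25 after the median of its window was removed. JAG1, a ligand, fell by 0.55 and the fringe enzyme MFNG fell by 0.95, while NOTCH2 rose by 0.29. The target HES1 (ENSG00000114315, chr3:194136148-194138732, plus strand) read 10.08, 10.10 and 10.14 in the parental libraries and 10.56, 10.52 and 10.60 in those labelled KD. It was high in the libraries labelled KD and rose by 0.45 (standard error 0.0281, adjusted p = 3.1e-15, limma), of which 0.22 remained after the median of its window on chromosome 3 was removed. HES7 rose by 0.79 and the DNA-binding factor RBPJ by 0.25 (0.14 with its window median removed).

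Growth factor genes changed at several levels of the pathways. In the FGF and EGF receptor list 21 of 50 genes rose and 17 fell, and the median of 0.019 turned to -0.034 with window medians removed. The EGF receptor ligand AREG (ENSG00000109321, chr4:74445136-74455005, plus strand) read 8.83, 8.90 and 8.86 in the parental libraries and 7.26, 7.28 and 7.35 in those labelled KD, a difference of -1.57. AREG fell while the median of its chromosome 4 window was 0.42, and the libraries labelled OE differed from parental by -1.17. The ligand NRG1 fell by 1.19 and HBEGF fell by 0.62. Of 16 feedback inhibitors of receptor signalling 8 rose and 4 fell, led by SPRY1 (1.09), SPRY4 (0.56) and SPRED3 (0.54), with DUSP7 (-0.56, or -0.25 with its window median removed) among the falls. Among other receptor tyrosine kinases and their ligands 18 of 48 rose and 18 fell. HGF, the ligand of MET (ENSG00000019991, chr7:81699010-81770438, minus strand), rose from 7.69, 7.72 and 7.83 to 9.22, 9.23 and 9.22, by 1.48, and IGFBP3 by 0.69, while the VEGF receptor KDR fell by 1.32. In the TGF-beta and BMP pathway 14 of 58 genes rose and 22 fell, with a median of -0.026. The inhibitory SMAD6 fell by 1.18 and the ligand GDF15 fell by 1.01, and the receptor ACVR1C rose by 0.72.

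The Hedgehog and Hippo list had 10 rises and 20 falls among 37 genes, with a median of -0.115 that kept its sign under each scaling tried. For the 13 Hedgehog genes, with 4 rises and 7 falls, the median of -0.122 turned to 0.022 with window medians removed. GLI2, an activating transcription factor of the Hedgehog pathway (ENSG00000074047, chr2:120735623-120992653, plus strand), read 11.68, 11.66 and 11.64 in the parental libraries and 10.72, 10.74 and 10.78 in those labelled KD. It fell by 0.91 (standard error 0.0211, adjusted p = 1.7e-26, limma), while the related GLI3 rose by 0.58 and the co-receptor BOC by 1.36. Of 24 Hippo components and targets 6 rose and 13 fell. CCN2, a target of YAP and TEAD factors (ENSG00000118523, chr6:131948176-131951372, minus strand), fell from 10.12, 10.14 and 10.14 to 9.13, 9.13 and 9.17, and AMOTL2 fell by 0.51, while the coactivators WWTR1 and YAP1 rose by 0.40 and 0.10 and TEAD2 by 0.43.

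RAPGEF6, an activator of RAP proteins, rose by 2.62, but other genes overlap 54.9% of its exon bases, so the source of these reads is uncertain. The GTPase-activating genes ARHGAP42 and ARHGAP29 fell (differences -1.48 and -1.08), and STARD8 of the same function rose by 1.15. In the list named for cyclic nucleotide signalling, 26 of 73 genes rose and 22 fell. It holds 24 adhesion receptors, among them ADGRL2 and ADGRL3, of which 7 rose and 9 fell. Of the 49 cyclases, phosphodiesterases and kinases, 19 rose and 13 fell. PRKAR1A, the regulatory subunit of protein kinase A, was up by 0.63 from 13.85, 13.87 and 13.88 to 14.51, 14.50 and 14.49.

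Among transcription factors, the early response genes did not move as a block. FOS (ENSG00000170345, chr14:75278826-75282230, plus strand) read 9.33, 9.24 and 9.35 in the parental libraries and 10.43, 10.45 and 10.42 in those labelled KD, and EGR1 (ENSG00000120738, chr5:138465479-138469303, plus strand) read 12.02, 12.03 and 12.05 and 12.89, 12.88 and 12.90. Both were higher in the libraries labelled KD with no overlap, by 1.13 and 0.85 (standard errors 0.031 and 0.0166, adjusted p = 1.7e-24 and 1.6e-28, limma). ATF3 fell by 1.12, and of 18 AP-1, MAF and EGR genes 4 rose and 11 fell, with a median of -0.150. EGR2 and EGR3 fell (differences -0.30 and -0.26), and JUN fell by 0.12. STAT, IRF and NF-kB genes had 10 rises and 1 fall among 16, of small size, with IRF7 at 0.34 and STAT5B at 0.29. Nuclear receptors had 19 rises and 13 falls among 42. RORB fell by 1.02, and the difference was -0.64 after the median of its chromosome 9 window was removed.

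Basic helix-loop-helix factors had 17 rises and 7 falls among 34 genes, with a median of 0.075. ARNT2, the neural partner of PAS-domain factors (ENSG00000172379, chr15:80404350-80597933, plus strand), read 12.05, 12.07 and 12.06 in the parental libraries and 13.50, 13.52 and 13.50 in those labelled KD. The rise of 1.45 (standard error 0.0156, adjusted p = 2.6e-35, limma) left no overlap between the groups. Of the MYC network, MXI1 and MXD3 rose by 0.55 and 0.55 and MYC fell by 0.41 (-0.16 with its window median removed). ETS factors had 5 rises and 8 falls among 22, with FLI1 at -0.93 and ETS1 at -0.57. Homeobox genes outside the HOX clusters had 29 rises and 31 falls among 84, and their median of -0.010 turned to 0.015 with window medians removed. Besides PRRX1, LMO7, which carries a LIM domain and no homeobox, rose by 0.74, and DLX2 and PITX1 fell (differences -0.73 and -0.60). Of 21 HOX genes, 4 rose and 4 fell, with HOXB7 at 0.35 and HOXC13 at -0.35. In the list of SOX, FOX and KLF genes 15 of 63 rose and 24 fell, with KLF4 at -0.94 (-0.58 with its window median removed) and FOXC2 at -0.97, and rises of FOXF1 by 0.65 and KLF15 by 0.55.

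In the list of zinc finger genes, the longest, 217 of 481 were lower (45.1%) and 111 higher, with a median of -0.049. The ZNF genes code for DNA-binding repressors that arose by duplication, many of which stand in clusters on chromosome 19. Of the 199 ZNF genes on chromosome 19, 117 fell (58.8%) and 23 rose, with a median of -0.155 in the libraries labelled KD and 0.002 in those labelled OE. Elsewhere 81 of 226 ZNF genes fell and 65 rose, with a median of -0.006 that turned to 0.018 with window medians removed. The other 1105 genes of chromosome 19 were called lower in 29.0% and had a median of -0.008. A difference over 0.5 was seen for 33 of the falls on chromosome 19, and over 1 for 16. Near-identical members share sequence, and reads of paralogs could be split among them by the counting, so single members are uncertain.

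ZNF682 (ENSG00000197124, chr19:19997058-20039505, minus strand) read 8.99, 8.94 and 8.98 in the parental libraries, 6.77, 6.73 and 6.76 in those labelled KD and 8.88, 8.89 and 8.90 in those labelled OE. ZNF320 (ENSG00000182986, chr19:52860851-52897693, minus strand) read 9.89, 9.90 and 9.94 in the parental libraries and 7.75, 7.76 and 7.71 in those labelled KD, and ZNF83 (ENSG00000167766, chr19:52594060-52690559, minus strand) read 9.63, 9.54 and 9.66 and 7.57, 7.56 and 7.54. Each was low in the libraries labelled KD with no overlap. Differences were -2.22, -2.17 and -2.05 (standard errors 0.0355, 0.0309 and 0.0341, adjusted p = 9.3e-31, 4.4e-32 and 2.8e-30, limma). Clusters of ZNF genes less than 1 Mb apart, a grouping chosen after the data were seen, did not move alike. In the cluster from 19668796 to 24129968, which holds ZNF682, 30 of 35 ZNF genes fell and 1 rose, with a median of -0.299. In that from 51571283 to 53580269, which holds ZNF320 and ZNF83, 28 of 35 fell and 1 rose, with a median of -0.243, and in that from 36182276 to 37817300, 18 of 22 fell and none rose, with a median of -0.294. Of the other genes within these 3 clusters, 15 of 26, 4 of 14 and 8 of 17 fell, with medians of -0.073, -0.003 and -0.076. In contrast, of 6 ZNF genes from 34542462 to 34964229 none fell and 3 rose, with a median of 0.062, or 0.102 with window medians removed. The medians of the ZNF genes in these 4 clusters kept their sign under each scaling tried.

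The promoters of these 3 genes are printed because their members fell together, from RefSeq on GRCh38.p14, on the minus strand and 5′ to 3′. ZNF682 is at chr19:20039456-20039755, ZNF83 at chr19:52690447-52690746 and ZNF320 at chr19:52897645-52897944, each of 300 bases around the start of the gene. Capitals mark the motif CG, which reads the same on both strands. It occurs 9 times for ZNF682, 29 times for ZNF83 and 20 times for ZNF320. Over the 13258 promoters matched to a gene of the table, 98.9% hold it, with a median of 24 copies.
ZNF682: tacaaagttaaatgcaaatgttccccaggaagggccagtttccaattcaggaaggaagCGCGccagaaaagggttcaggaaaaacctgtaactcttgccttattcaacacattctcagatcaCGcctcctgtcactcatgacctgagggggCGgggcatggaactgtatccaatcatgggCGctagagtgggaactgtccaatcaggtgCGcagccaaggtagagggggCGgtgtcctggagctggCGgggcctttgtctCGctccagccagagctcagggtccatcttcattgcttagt
ZNF83: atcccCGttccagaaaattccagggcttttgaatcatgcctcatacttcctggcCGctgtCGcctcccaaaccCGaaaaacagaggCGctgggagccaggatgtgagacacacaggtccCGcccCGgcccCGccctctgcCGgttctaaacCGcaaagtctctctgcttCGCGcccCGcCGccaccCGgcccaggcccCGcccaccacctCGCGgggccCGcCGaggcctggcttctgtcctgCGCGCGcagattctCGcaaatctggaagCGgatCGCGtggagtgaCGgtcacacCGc
ZNF320: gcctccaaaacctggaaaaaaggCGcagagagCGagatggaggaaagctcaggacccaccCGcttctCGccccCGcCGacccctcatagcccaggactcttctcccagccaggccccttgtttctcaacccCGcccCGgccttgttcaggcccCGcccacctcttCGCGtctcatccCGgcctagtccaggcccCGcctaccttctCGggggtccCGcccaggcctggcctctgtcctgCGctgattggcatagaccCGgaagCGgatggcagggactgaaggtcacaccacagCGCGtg
Promoters were matched for 59.5% of the 22290 genes. Among these promoters ZNF682 lies below the lower quartile (13), and the other 2 lie between the quartiles (13 and 33). No conclusion is drawn on CG content between ZNF genes that fell and the rest, since part of each set had no matched promoter. Promoters were matched for 79.3% of those that fell, 79.5% of those that rose and 83.5% of those not called.

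**Figure D4:**
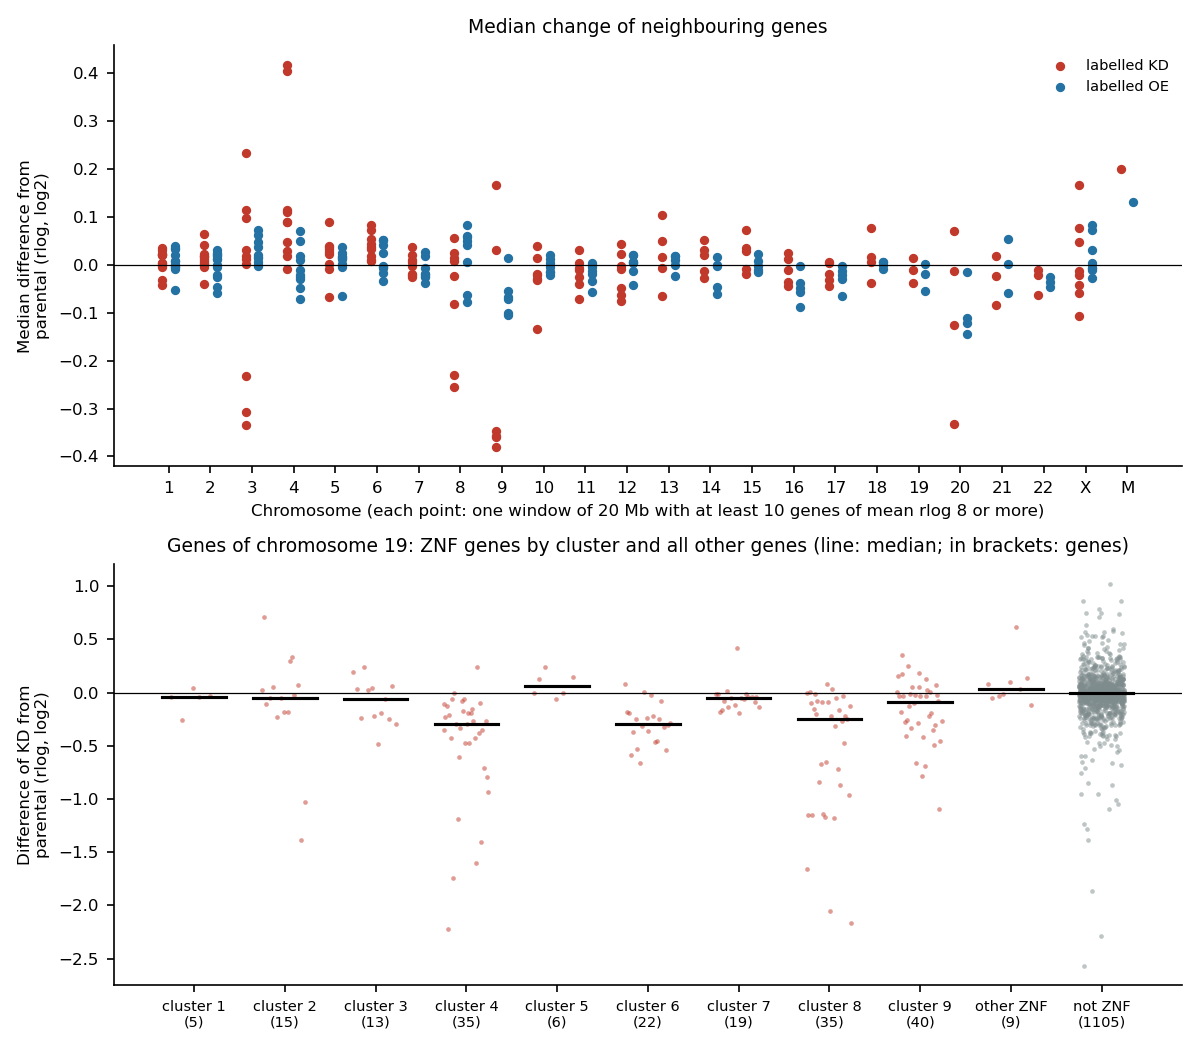
Upper panel, median difference from parental (vertical axis, rlog, log2) of windows of 20 Mb by chromosome (horizontal axis), for the libraries labelled KD (red) and OE (blue). In the lower panel are differences between the libraries labelled KD and parental for genes of chromosome 19 (points) with the median of each ZNF cluster and of other genes (lines), where clusters 4, 6 and 8 have medians of -0.299, -0.294 and -0.243, and genes that are not ZNF have a median of -0.008.

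Position on the chromosome went with direction in stretches of other chromosomes. In 13 of 157 windows of 20 Mb, the median difference of genes averaging 8 or more lay beyond 0.2 in size, as the plot of window medians shows. On chromosome 9 from 60 to 140 Mb, 265 of 295 such genes fell (median -0.354), and on chromosome 3 from 0 to 60 Mb, 222 of 248 fell (median -0.297). Falls also prevailed on chromosome 20 from 20 to 40 Mb, with 81 of 90 genes (median -0.333), and on chromosome 8 from 120 to 160 Mb, with 78 of 98 (median -0.234). Rises prevailed on chromosome 4 from 60 to 100 Mb, with 49 of 65 genes (median 0.412), and at 180 to 200 Mb of chromosome 3, with 60 of 77 (median 0.233). Over the same stretches the medians of the libraries labelled OE were -0.079, 0.010, -0.111, -0.066, -0.034 and -0.003. The shifted windows hold 1833 genes (8.22%), and outside them 10772 of 20457 genes (52.7%) were called. No window of chromosome 19 was among the shifted ones, at medians of -0.0105, -0.0381 and 0.0147. The part of position in single results was not tested beyond removing window medians.

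Changes particular to the libraries labelled KD were those called against parental, called in the same direction against the libraries labelled OE, and not called between OE and parental. Of all genes, 10552 (47.3%) were called between the libraries labelled KD and OE, and 7764 (34.8%) between OE and parental. Both comparisons with parental share the same 3 parental libraries, and a missed call in OE does not show that a gene was the same there. By this definition 2375 genes (10.7%) were higher and 2085 (9.35%) lower, of which 177 and 114 differed from parental by over 0.5. Of the particular genes, 504 (11.3%) lie in the shifted windows.

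After RAPGEF6, the largest particular rise among the named genes was RELN, at 2.45 in the libraries labelled KD and -0.04 (adjusted p = 0.594, limma) in those labelled OE. CSMD3, a large neural membrane protein gene, differed by 1.94 and -0.07 from parental, and CDH18 by 1.71 and -0.02. LRFN5, a synaptic adhesion protein gene (ENSG00000165379, chr14:41606876-41904549, plus strand), read 5.94, 6.09 and 6.08 in the parental libraries, 7.69, 7.74 and 7.71 in those labelled KD and 6.08, 6.15 and 6.02 in those labelled OE. The libraries labelled KD were high, and those labelled OE overlapped with parental. Direct comparison of the libraries labelled KD with OE gave 1.63 for LRFN5 and 2.49 for RELN (adjusted p = 2.2e-23 and 2.5e-28, limma). Other rises of the group were CSN3 (1.86), GAGE1 (1.76), CFHR4 (1.64), the scavenger receptor gene SCARA5 (1.43) and the extracellular superoxide dismutase gene SOD3 (1.38). GAGE1 belongs to a family of near-identical copies on chromosome X and is uncertain for that reason.

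MYH14, a non-muscle myosin heavy chain (ENSG00000105357, chr19:50188186-50310542, plus strand), headed the particular falls with 10.25, 10.25 and 10.32 in the parental libraries, from 7.90 to 8.06 in those labelled KD and 10.22, 10.26 and 10.31 in those labelled OE. It was low in the libraries labelled KD, a difference of -2.28, and overlapped between OE and parental. Beside the ZNF genes above and ZNF90 (-1.60), the falls were GASK1B (-1.70), ZC4H2 (-1.59), ARHGAP42 (-1.48), CCDC88C (-1.45) and NRG1 (-1.19). EGR1, LEF1, NTN1, GAL, PCSK1N, GDF15 and RORB also met the definition. CCDC88C and ZC4H2 differed from parental by 0.06 and 0.06 in the libraries labelled OE.

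**Figure D5:**
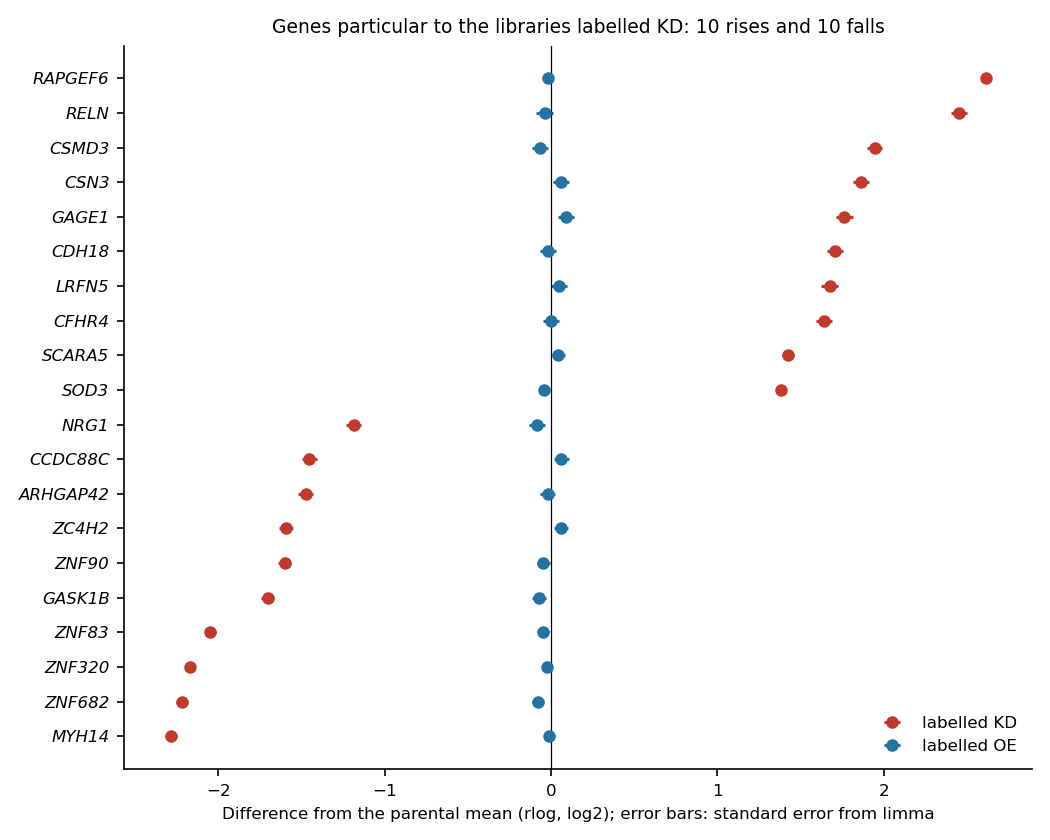
Difference from the parental mean (horizontal axis, rlog, log2) of 20 genes particular to the libraries labelled KD (red), with the values of the libraries labelled OE beside them (blue). Points are differences of means of 3 libraries and error bars are standard errors from limma, and values labelled KD run from -2.28 for MYH14 to 2.62 for RAPGEF6, while those labelled OE lie between -0.09 and 0.09.

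In the dot plot of these genes the values labelled OE lie between -0.09 and 0.09, and genes called there had been left out by definition. Among the lists, 12 of 48 cadherins were particular rises and 2 particular falls, where 10.7% and 9.35% of all genes were. Zinc finger genes had 124 particular falls (25.8%) and 41 particular rises (8.52%) among 481, and on chromosome 19 the ZNF genes had 76 and 6 among 199. Matrix genes had particular rises at the rate of all genes (10.8%) and fewer particular falls (2.88%). Among the large changes that were not particular, COL6A3 differed from parental by -1.24 in the libraries labelled KD and -0.73 in those labelled OE, and ADAMTS4, AREG, WNT9A and FERMT3 moved the same way in both.

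Families of genes that share the letters of their symbol gave further groups. Of families with at least 10 measured genes, the 5 with the highest share of rises were ARID (7 of 10), HLA (18 of 27), KMT (8 of 12), PCDH (8 of 12) and ATXN (9 of 14). HLA genes present peptides to T cells, and the symbol that fell, HLA-F-AS1, is an antisense noncoding RNA. HLA-DOA read 10.65, 10.66 and 10.68 in the parental libraries and 11.77, 11.77 and 11.76 in those labelled KD, and HLA-C read 10.48, 10.45 and 10.41 and 10.97, 10.95 and 10.97. They rose by 1.10 and 0.52 with no overlap, and the family median was 0.141, or 0.074 with window medians removed. HLA genes are variable and alike, so the split of reads among them is uncertain. ARID genes code for DNA-binding chromatin factors and most KMT genes for lysine methyltransferases, and their rises were small, such as ARID1A by 0.28 and KMT2E by 0.27. The counts are of symbols, so those of HLA, KMT, PCDH and ATXN include noncoding RNAs or pseudogenes, such as KMT2E-AS1 among the KMT rises.

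The 5 families with the highest share of falls were TIMM (11 of 13), NAA (8 of 10), CCT (8 of 11), NOL (7 of 10) and PSMC (7 of 10). The CCT genes code for the ring-shaped cytosolic chaperonin that folds actin and tubulin, and the 8 protein-coding genes with this symbol fell, while the other 3 symbols are pseudogenes. TCP1, a further subunit gene, does not carry the symbol and was not counted. CCT4 read 11.05, 11.06 and 11.08 in the parental libraries and 10.75, 10.78 and 10.85 in those labelled KD, and CCT3 read 14.67, 14.68 and 14.65 and 14.42, 14.43 and 14.43. The groups did not overlap, with differences of -0.27 and -0.24, and the family median was -0.165. Medians were -0.186 for TIMM genes of mitochondrial import, -0.163 for NOL and -0.124 for PSMC. The PSMC falls are 6 genes of the proteasome base and PSMC3IP, a recombination factor. NOL members differed, from -0.84 for NOL4L (-0.51 with its window median removed) to a rise of 0.19 for NOL3. The medians of these 10 families kept their sign under each scaling tried.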

How the data were processed

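RNA of 9 libraries labelled IMR-32 was measured by sequencing. Per the submitters' processing notes the authors used cutadapt, HISAT2, featureCounts of Subread and DESeq2 with GRCh38, with versions and strand setting not given in the sources used here. They deposited rlog values on the log2 scale for 22290 genes, scaled for library size, with no counts. Samples were grouped by their labels. Group means were compared in a linear model of all 9 libraries with limma 3.58.1 in R 4.3.3 (variance trend, Benjamini-Hochberg adjustment over 22290 genes, calls at adjusted p under 0.05), tested on simulated data. Tables and figures were made with Python 3.11.15, pandas 2.3.3, numpy 2.4.6 and matplotlib 3.10.9. Coordinates, biotypes and exon sharing came from GENCODE release 44 for 22195 genes, and 18433 had a symbol.

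Named genes were protein-coding, called, averaging 5 or more in rlog, with no overlap of groups: the 10 largest rises and 10 largest falls, those of the particular genes, the 2 of each direction in each list, TRAP1 and cell type markers. Members of list subgroups and symbol families named beyond this rule were chosen after their values were seen. Members and lists were chosen with earlier results of these data known. Alternatives were the 6 libraries alone, no variance trend, a minimum mean rlog of 5, a replicate block, 2 other scalings, removal of 20-Mb window medians, and leaving out each library.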

Additional observations from a re-analysis of the deposited data

Results flagged for a closer look

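In the named genes given here the libraries labelled KD and those labelled OE were called in opposite directions from the same parental libraries, and the difference between them was itself called by limma. MYEF2 differed between KD and OE by 2.42 on the log2 scale, NTNG1 by 1.95, NCAM1 by 1.84, HGF by 1.84 and HES1 by 0.56, each higher in the libraries labelled KD. TUBB2B differed by -0.95, lower in the libraries labelled KD. Both comparisons use the same parental libraries. These genes leave out the cell type markers and the members chosen after their values were seen. Among the latter 2 groups, FN1 differed from parental by -0.96 in the libraries labelled KD and 0.55 in those labelled OE. PECAM1 differed by 0.47 and -0.28, and PCDH17 by 1.27 and -0.38.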

How the results depend on the processing

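The count of genes called between the libraries labelled KD and parental was 11980, and 12023 with the 6 libraries alone, 11491 without a variance trend, 10189 with a mean rlog of at least 5, 12078 after a shift to the same median, 11847 after quantile normalization and 13142 with window medians removed. With the replicate block it was 12015. The deviations of same-numbered libraries were correlated across 9956 genes, which are not independent replicates. Between parental and KD the values were -0.120, -0.081 and 0.021, and unlike-numbered libraries ran from -0.0726 to 0.149. Between KD and OE they were 0.218, 0.041 and 0.268, and unlike-numbered libraries ran from -0.262 to 0.0668. The block changed no named call. Leaving out each library gave 11106 to 12030 calls, 1097 to 1126 with a difference over 0.5 (1110 with all libraries, 990 with window medians removed) and 4076 to 4590 particular genes (4460 with all libraries, 4439 with the block). With window medians removed 5085 genes were particular, 3092 of them among the 4460. The particular genes cannot be found from the 6 libraries alone.

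The 117 named genes, counted without the list of cell type markers, kept their direction and side of the threshold in 1872 of 1872 alternatives. Apart from TRAP1 they were chosen as large called changes without overlap in these same values. This outcome was therefore largely fixed by the choice. Leaving out a library labelled OE also left their KD and parental values unchanged. Of 768 alternative list counts, 765 lay within 1.5 times the main count. The other 3, neurotransmitter receptors higher (12 against 21) and lower (13 against 26) and synaptic vesicle genes lower (13 against 20), came from the mean rlog of at least 5, which tests fewer genes by construction. Rises made up 5985 of the 11980 calls, and 45.2% to 51.6% of the calls under the scalings. Depth is unknown from rlog values, and low genes are the most shrunken.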
